A study of Mus musculus with 6 samples.

Results

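Immunoglobulin genes encode the heavy and light chains of antibodies. The 93 genes described here are the rows of the liver expression table whose names mark a heavy, kappa or lambda variable or constant segment, together with Jchain, Mzb1, Cd79a and Cd79b, out of 14499 genes in all. They fell into 28 heavy, 48 kappa and 2 lambda variable segments, 7 heavy, 1 kappa and 3 lambda constant segments, and the 4 accessory genes. The annotation used for positions, GENCODE M21 on GRCm38, lists 218 functional variable genes, so the 78 variable members cover only a part of them. Among the 78, Ighv1-14 is annotated as a variable pseudogene. The rule for members used names alone and no measured value, but it was set with earlier results of these data known.

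Total RNA was sequenced from the livers of mice of C57Bl/6; 129Sv background, 10 weeks old, after 2 weeks of injury with DDC, a porphyrinogenic compound. The wild-type group (WT_DDC) and the group with deletion of Arid1a, a chromatin remodeller subunit, in hepatocytes (Arid1a_KO_DDC) had 3 libraries each, and the comparison asks what depends on genotype in the injured liver. The driver of the deletion is not given in the sources used here, and the deletion is labelled as specific to hepatocytes, which do not make antibodies. Nothing in the labels ties the libraries to different animals, and the p-values therefore cover only the variation among these libraries.

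Values are FPKM, fragments scaled to gene length and to the mapped fragments of the library. Libraries had 11280 to 11712 genes at 1 FPKM or more, and their absolute depth is unknown. In whole-liver RNA, fewer cells of a type and less RNA per cell cannot be told apart. The Y-linked gene Ddx3y was at 0.0527 and 0.0227 FPKM in replicate 1 of the wild-type and knockout groups and at 9.27 to 11.3 FPKM in the other libraries, so replicate 1 of both groups stands apart in sex-linked transcripts and also in library number (L0566 and L0567 against L0602 to L0605). Knockout replicate 2 stands apart from the other knockout libraries in its immunoglobulin transcripts, and results are given with and without it. Arid1a itself was at 5.48 to 7.85 FPKM in the wild-type and 3.81 to 6.61 FPKM in knockout libraries. A gene-level value also covers undeleted exons and other cell types, so it does not check the labels.

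Each B cell joins a heavy chain variable segment and a kappa or lambda variable segment to its constant region, and its descendants keep that choice. Activated B cells can switch the heavy constant gene from Ighm and Ighd to a gene for IgG, IgA or IgE, and plasma cells secrete the antibody in very large amounts. Levels of variable segments in a tissue therefore reflect which B and plasma cell clones it holds, and levels of constant segments reflect the antibody classes.

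Of the 6 variable genes that fell, 5 had a closest annotated relative that was 93.9% to 96.2% identical, and that of Igkv6-32 was 85.9% identical. The following sequences are shown because members of 1 family took different courses across the libraries. They are the first 298 or 300 bases of the exon that encodes most of the variable domain, from the GENCODE M21 transcripts of GRCm38, a C57BL/6J reference, printed 5' to 3' in the sense of transcription. For the kappa family Igkv12, capitals mark bases that differ from Igkv12-44 in a pairwise alignment; Igkv12-44 lies at chr6:69814631-69814928, Igkv12-46 at chr6:69764523-69764820 and Igkv12-41 at chr6:69858420-69858717, all on the minus strand.
Igkv12-44: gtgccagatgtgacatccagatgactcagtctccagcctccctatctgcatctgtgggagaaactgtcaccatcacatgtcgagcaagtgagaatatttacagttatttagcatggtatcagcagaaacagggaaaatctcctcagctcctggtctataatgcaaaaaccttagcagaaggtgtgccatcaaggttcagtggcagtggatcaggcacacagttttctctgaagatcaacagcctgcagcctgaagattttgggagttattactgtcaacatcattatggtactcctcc
Igkv12-46: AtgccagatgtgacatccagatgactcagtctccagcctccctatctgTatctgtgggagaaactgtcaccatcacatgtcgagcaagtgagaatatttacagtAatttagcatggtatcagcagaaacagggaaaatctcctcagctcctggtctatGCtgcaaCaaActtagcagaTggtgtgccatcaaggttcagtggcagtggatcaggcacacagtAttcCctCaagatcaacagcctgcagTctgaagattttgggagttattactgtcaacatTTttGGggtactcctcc
Igkv12-41: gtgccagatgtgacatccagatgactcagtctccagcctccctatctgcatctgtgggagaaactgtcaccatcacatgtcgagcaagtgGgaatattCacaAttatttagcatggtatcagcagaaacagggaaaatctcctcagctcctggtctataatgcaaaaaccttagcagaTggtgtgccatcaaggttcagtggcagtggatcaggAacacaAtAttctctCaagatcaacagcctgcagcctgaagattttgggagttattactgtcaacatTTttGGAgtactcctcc
For the heavy family Ighv8, capitals mark bases that differ from Ighv8-5; Ighv8-5 lies at chr12:115067572-115067871, Ighv8-8 at chr12:115294074-115294373 and Ighv8-12 at chr12:115647957-115648256, all on the minus strand.
Ighv8-5: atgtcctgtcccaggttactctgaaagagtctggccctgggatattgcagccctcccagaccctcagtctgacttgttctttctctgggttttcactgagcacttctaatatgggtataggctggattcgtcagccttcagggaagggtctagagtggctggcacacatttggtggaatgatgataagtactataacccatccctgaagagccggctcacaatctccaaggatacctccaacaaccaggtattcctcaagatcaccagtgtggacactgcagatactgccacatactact
Ighv8-8: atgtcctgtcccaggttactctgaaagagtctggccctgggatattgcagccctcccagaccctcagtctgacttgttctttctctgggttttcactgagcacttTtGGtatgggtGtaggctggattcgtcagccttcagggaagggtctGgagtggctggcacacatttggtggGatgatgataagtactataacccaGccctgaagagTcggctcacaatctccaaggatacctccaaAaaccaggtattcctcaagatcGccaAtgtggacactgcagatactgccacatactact
Ighv8-12: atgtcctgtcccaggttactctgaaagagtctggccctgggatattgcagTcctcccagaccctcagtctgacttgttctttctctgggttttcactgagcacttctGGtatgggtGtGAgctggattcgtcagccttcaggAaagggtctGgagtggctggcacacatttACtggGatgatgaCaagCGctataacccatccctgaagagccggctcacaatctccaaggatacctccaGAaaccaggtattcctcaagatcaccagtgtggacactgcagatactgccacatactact
For the kappa family Igkv4, capitals mark bases that differ from Igkv4-74, with gaps not drawn; Igkv4-74 lies at chr6:69184835-69185134 and Igkv4-59 at chr6:69438221-69438520, both on the minus strand.
Igkv4-74: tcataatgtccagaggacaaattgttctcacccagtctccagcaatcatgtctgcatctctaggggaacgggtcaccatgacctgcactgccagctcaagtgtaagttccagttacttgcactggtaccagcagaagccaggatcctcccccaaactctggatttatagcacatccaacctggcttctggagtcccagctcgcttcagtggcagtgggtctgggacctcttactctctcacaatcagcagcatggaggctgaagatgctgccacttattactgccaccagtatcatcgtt
Igkv4-59: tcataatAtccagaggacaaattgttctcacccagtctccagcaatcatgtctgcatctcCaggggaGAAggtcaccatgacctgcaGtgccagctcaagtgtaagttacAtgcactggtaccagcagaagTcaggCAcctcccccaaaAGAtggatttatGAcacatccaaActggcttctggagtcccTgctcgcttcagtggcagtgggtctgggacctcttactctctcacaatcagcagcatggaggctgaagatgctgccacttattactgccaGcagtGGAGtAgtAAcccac

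Igkv12-46 was 94.6% and Igkv12-41 95.6% identical to Igkv12-44, with 16 and 13 differing bases over the exon's 298. Ighv8-8 was 96.2% and Ighv8-12 94.2% identical to Ighv8-5, with 12 and 18 differing bases over the exon's 312. Igkv4-59 was 90% identical to Igkv4-74, with 25 mismatches and 6 gap bases. Where relatives are this alike, the share of reads that the authors' counting gave to each is uncertain. The closest relative of Igkv4-74 was Igkv4-78, at 93.9%, which is not among the members. Igkv4-59 is named as the highest variable gene of knockout replicate 2. Apart from Igkv4-59 and Igkv4-74, no Igkv4 member exceeded 1.26 FPKM in that library. Among windows of 50 bases along the annotated transcript, a median of 27.7% per variable member also occurred in another annotated immunoglobulin gene. In 10 of the 78 variable members over 50% of the windows were shared, among them Igkv4-59 with 74.3%, and 11 members, among them Igkv6-32 and Igkv19-93, had no shared window. The reference carries C57BL/6J alleles while the mice also carried 129Sv background, and how many fragments of 129Sv alleles were placed was not tested.

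Constant segments showed a pattern of 4 libraries rich in antibody transcripts and 2 with almost none. Igkc, the kappa constant gene (chromosome 6, 70726435 to 70726966), had 1478, 4001 and 5412 FPKM across wild-type replicates 1 to 3. In knockout replicates 1, 2 and 3 the Igkc level was 17.6, 7538 and 22.5 FPKM. By level, Igkc ranked between 17 and 62 among all genes in the 4 rich libraries, and at 3376 and 3074 in knockout replicates 1 and 3. The lowest wild-type Igkc value was 65.8 times the higher of those 2 knockout values, while knockout replicate 2 was 1.39 times the highest wild-type value. The groups overlapped, and the log2 difference, knockout minus wild type on the log2(FPKM + 1) scale, was -4.42 (SE 2.21, limma adjusted p = 0.516).

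**Figure D1:**
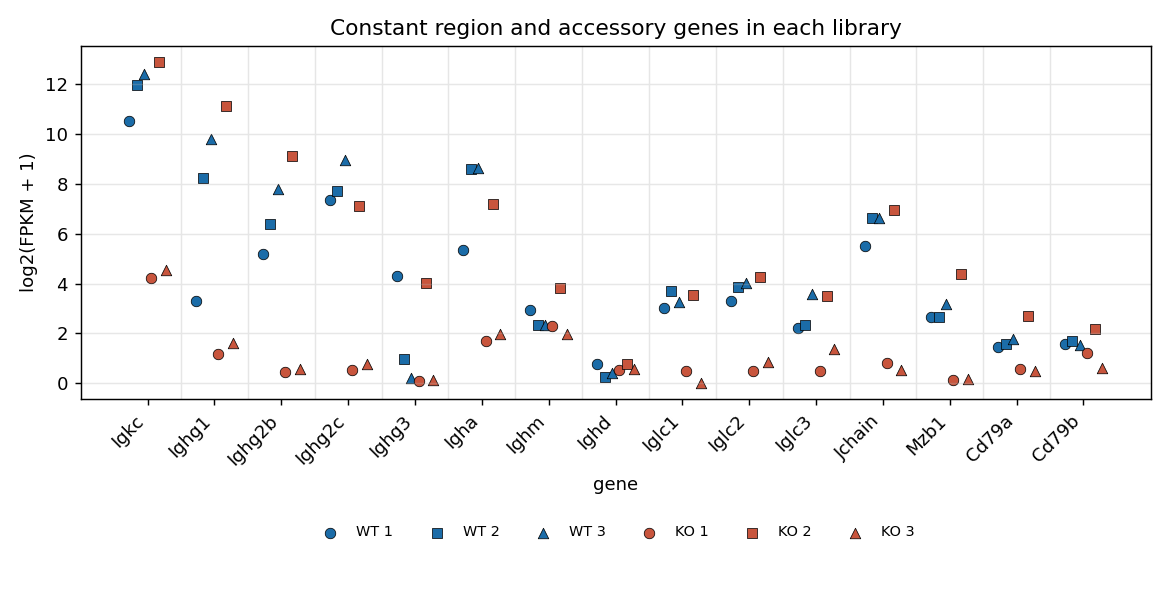
Level of the 11 constant and 4 accessory genes in each library, as log2(FPKM + 1) on the vertical axis, with blue points for wild-type and red points for knockout libraries and the point shape giving the replicate number. For Igkc, the G classes Ighg2b and Ighg2c, and Jchain, knockout replicates 1 and 3 lie far below all other libraries and knockout replicate 2 lies with the wild type, whereas Ighm and Cd79b span a narrower range, from 2.91 to 13.3 and from 0.541 to 3.51 FPKM, and Ighd is under 1 FPKM in all 6.

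The IgG constant genes on chromosome 12, which mark class-switched cells, had the widest range. Ighg1 had 8.80, 297 and 887 FPKM in the wild-type and 1.23, 2194 and 2.08 FPKM in knockout libraries. Ighg2b had 35.6, 83.6 and 221 FPKM in the wild-type and 0.385, 548 and 0.496 FPKM in knockout libraries. Knockout replicate 2 was thus the highest library for both, at 2.47 and 2.48 times the highest wild-type value, and knockout replicates 1 and 3 were the lowest. Ighg2c had 162, 211 and 492 FPKM in the wild-type and 0.464, 136 and 0.697 FPKM in knockout libraries. Ighg2c was the 1 constant gene with all knockout values below all wild-type values, at a log2 difference of -5.21 (SE 1.68, adjusted p = 0.315). What part the mixed strain background of the mice had in the Ighg2c level was not tested. Ighg3 followed no genotype pattern, with 18.5, 0.940 and 0.174 FPKM in the wild-type and 0.0802, 15.1 and 0.103 FPKM in knockout libraries. Ighe was not analysed here.

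Igha, the constant gene of the antibody class secreted at mucosal surfaces, had 40.0, 381 and 399.8 FPKM in the wild-type and 2.20, 145 and 2.93 FPKM in knockout libraries (log2 difference -3.91, SE 1.60, adjusted p = 0.434). Here knockout replicate 2 lay inside the wild-type range, not above it. The lambda constant genes on chromosome 16 were far lower than Igkc and divided the libraries in the same way. Iglc2, the highest of them on average, had 8.78, 13.6 and 15.2 FPKM in the wild-type and 0.417, 18.0 and 0.796 FPKM in knockout libraries. Iglc1 and Iglc3 ranged from 3.62 to 11.9 FPKM in wild-type libraries, from 0 to 1.62 FPKM in knockout replicates 1 and 3, and stood at 10.6 and 10.2 FPKM in knockout replicate 2. Of light chain constant FPKM, kappa made up 98.7% to 99.5% in the 4 rich libraries, and 93.5% and 90.3% in knockout replicates 1 and 3.

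Ighm and Ighd, the constant genes of B cells that have not switched class, had a much narrower range. Ighm had 6.63, 4.0 and 4.07 FPKM in the wild-type and 3.89, 13.3 and 2.91 FPKM in knockout libraries (log2 difference 0.17, SE 0.48, adjusted p = 0.926; -0.40 without knockout replicate 2). Ighd was below 1 FPKM everywhere, at 0.726, 0.177 and 0.315 FPKM in the wild-type and 0.460, 0.694 and 0.482 FPKM in knockout libraries. The higher of knockout replicates 1 and 3 was within a factor of 1.03 of the lowest wild-type library for Ighm, against factors of 71.7 for Ighg2b and 233 for Ighg2c.

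Among the accessory genes, Jchain and Mzb1 had a wide range and Cd79a and Cd79b a narrower one. Jchain, which links IgA and IgM monomers into polymers, had 44.8, 96.7 and 96.6 FPKM in the wild-type and 0.752, 122 and 0.442 FPKM in knockout libraries (log2 difference -3.49, SE 1.63, adjusted p = 0.487). Mzb1, an endoplasmic reticulum chaperone cofactor of antibody-secreting cells, had 5.26, 5.31 and 8.10 FPKM in the wild-type and 0.103, 19.7 and 0.134 FPKM in knockout libraries. Jchain and Mzb1, both tied to antibody secretion, were thus near 0 in knockout replicates 1 and 3 and highest in knockout replicate 2. Cd79b, a signalling chain of the B cell receptor, had 1.95, 2.24 and 1.89 FPKM in the wild-type and 1.33, 3.51 and 0.541 FPKM in knockout libraries. Cd79a, its partner, had 1.76, 2.02 and 2.46 FPKM in the wild-type and 0.489, 5.42 and 0.418 FPKM in knockout libraries. The lowest wild-type level exceeded the higher of knockout replicates 1 and 3 by 1.42 times for Cd79b and 3.60 times for Cd79a, against 59.5 times for Jchain and 39.4 times for Mzb1.

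The antibody classes were mixed differently in every library, as shares of the summed heavy constant FPKM. IgG genes made up 82.6%, 60.6% and 79.8% in wild-type replicates 1 to 3 and 94.8% in knockout replicate 2. Within these, Ighg2c led in wild-type replicate 1 with 59.5%, and Ighg1 had 3.23% there. Igha led in wild-type replicate 2 with 39.0%, and Ighg1 led in wild-type replicate 3 with 44.2% and in knockout replicate 2 with 71.9%. Knockout replicate 2 had the lowest Ighg2c share of the 4 rich libraries, 4.45%, and the lowest Igha share, 4.75%. In knockout replicates 1 and 3, where the summed level was only 8.70 and 9.70 FPKM, Ighm held 44.7% and 30% and Ighd 5.28% and 4.98%.

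**Figure D2:**
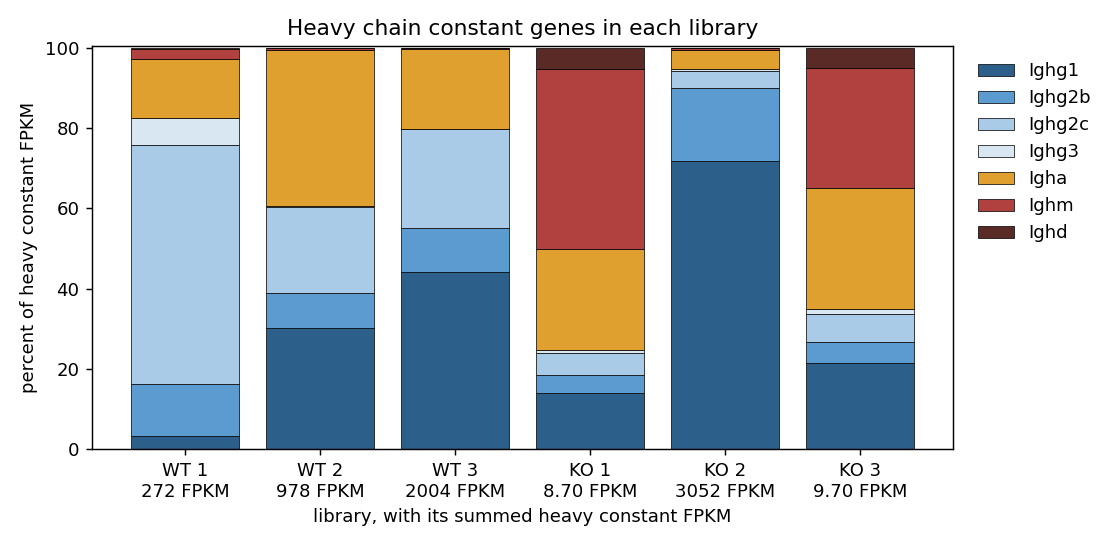
Stacked bars give the share of each heavy chain constant gene in the summed heavy constant FPKM of a library, in percent, with that sum printed under the bar. Ighm, in red, is a large share only in knockout replicates 1 and 3, whose sums are under 10 FPKM, and Ighg1 holds 71.9% in knockout replicate 2.

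Variable segments repeated the division of the libraries. Summed over the 78 variable members, the level was 1949, 4764 and 9063 FPKM in the wild-type and 25.9, 12163 and 25.6 FPKM in knockout libraries. In knockout replicates 1 and 3 no variable member reached 10 FPKM. The highest there were Igkv1-135 with 3.83 FPKM in replicate 1 and Igkv10-96 with 4.27 FPKM in replicate 3, and 17 of 21 and 5 of 13 non-zero values were under 1.5 FPKM. Several genes shared exactly the same low value within a library, such as 4 genes at 1.10 FPKM in wild-type replicate 1, and how many fragments stand behind such values is unknown. No heavy variable member was above 0 in knockout replicate 3. At 10 FPKM or more there were 19, 45 and 44 variable members in wild-type replicates 1 to 3 and 33 in knockout replicate 2.

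**Figure D3:**
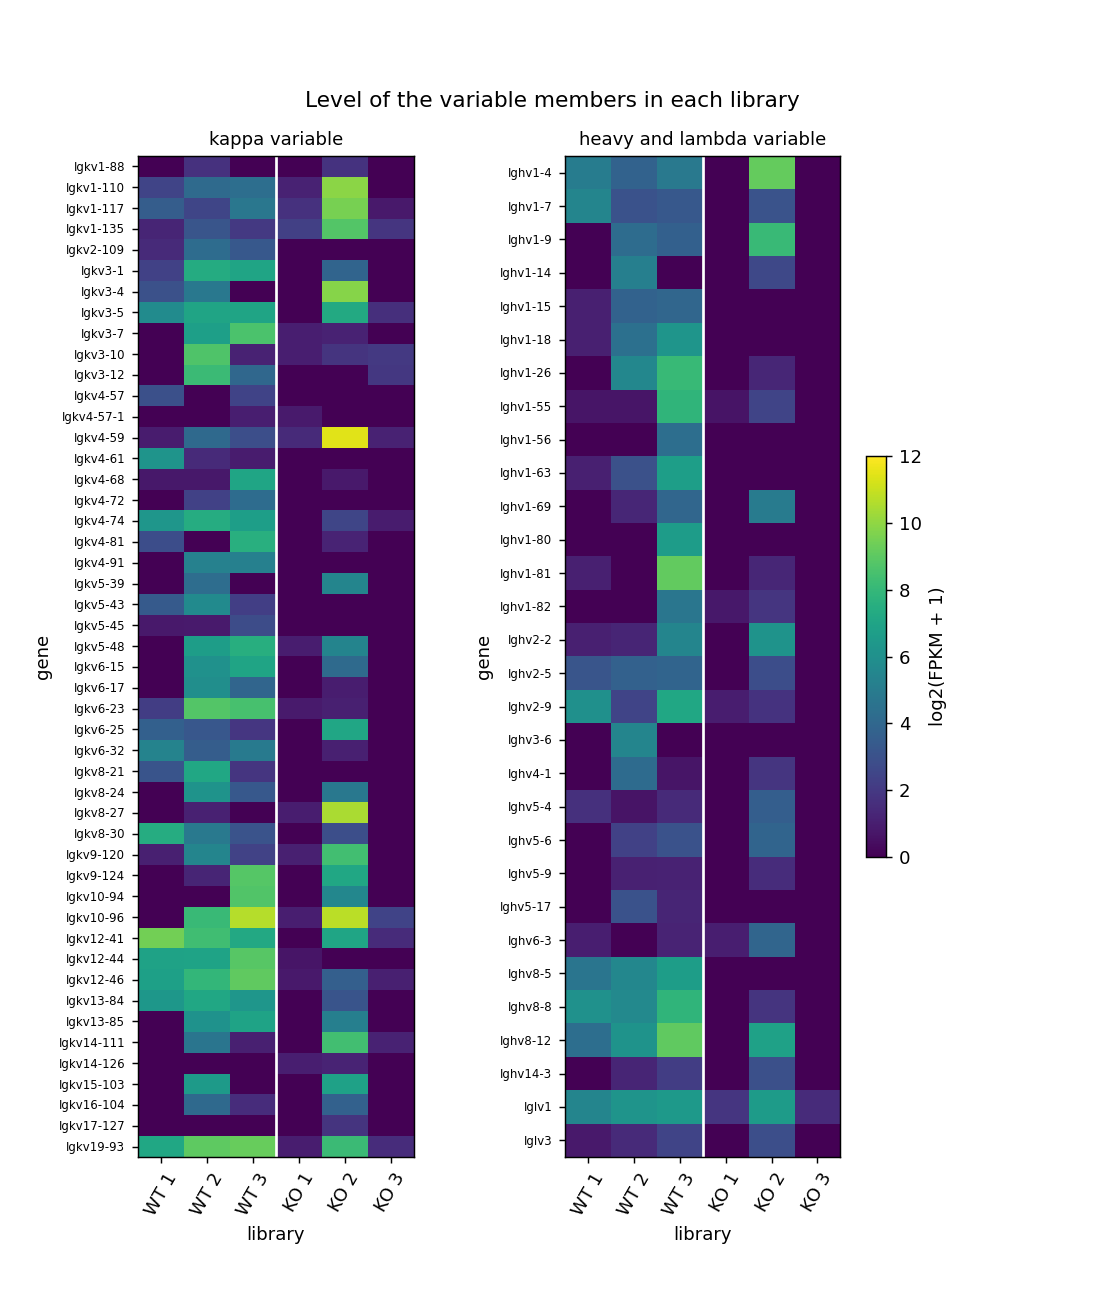
Level of the 78 variable members as log2(FPKM + 1), from 0 (dark) to 12 (bright), with kappa genes in the left panel, heavy and lambda genes in the right panel and the libraries in columns. Knockout replicates 1 and 3 are dark throughout, and the brightest gene of knockout replicate 2, Igkv4-59, is at most 16.4 FPKM in the wild-type libraries.

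Each rich library had its own leading genes. Igkv12-41 led wild-type replicate 1 with 691 FPKM, 35.5% of its variable FPKM. Igkv19-93 led wild-type replicate 2 with 513 FPKM, or 10.8%, and Igkv10-96 led wild-type replicate 3 with 1635 FPKM, or 18.0%. Igkv4-59 led knockout replicate 2 with 2809 FPKM, or 23.1%, and had 0.893, 16.4 and 6.43 FPKM in the wild-type libraries. The 5 highest genes held 63.3%, 41.3% and 42.6% of variable FPKM in wild-type replicates 1 to 3 and 64.3% in knockout replicate 2. The effective number of variable genes, the exponential of the Shannon entropy of their shares, was 12.4, 28.4 and 24.8 in wild type and 14.1 in knockout replicate 2. Wild-type replicate 1 and knockout replicate 2 were thus the more concentrated of the 4 rich libraries. These had the lowest and the highest summed level of the 4, so concentration did not follow summed level. With 1 knockout library among the 4, nothing is read about genotype.

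**Figure D4:**
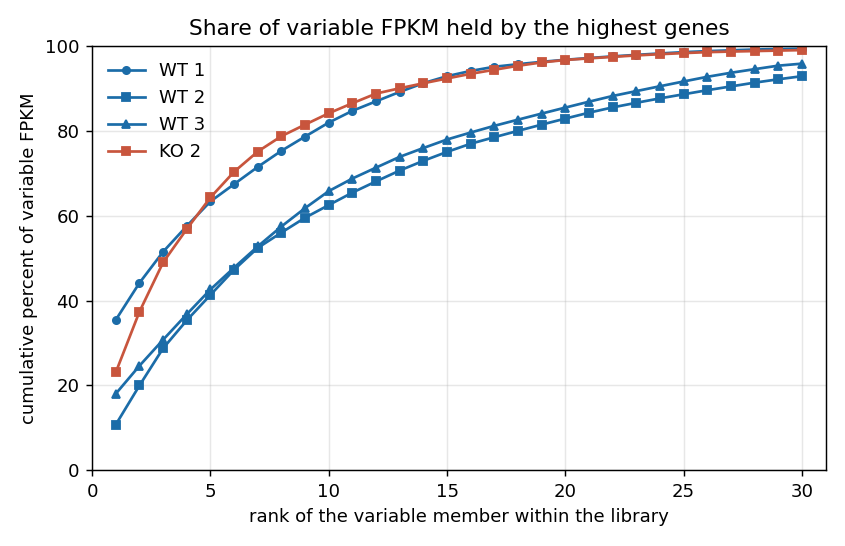
Cumulative share of variable FPKM, in percent, against the rank of the gene within its library, for the 4 libraries with high immunoglobulin levels. The curves of wild-type replicate 1 and knockout replicate 2 rise faster than those of wild-type replicates 2 and 3, with 63.3% and 64.3% against 41.3% and 42.6% in the 5 highest genes.

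Among heavy chains, Ighv1-4 alone held 50.2% of heavy variable FPKM in knockout replicate 2, with 579.5 FPKM there, 32.0, 12.5 and 27.8 FPKM in wild type and 0 in knockout replicates 1 and 3. The leading heavy genes of wild type were Ighv8-8 in replicate 1 (24.6%), Ighv8-12 in replicate 2 (17.0%) and Ighv1-81 in replicate 3 (21.8%). Ighv1-81 had 1.10, 0 and 556 FPKM in the wild-type and 0, 1.42 and 0 FPKM in knockout libraries, so it was a gene of a single liver library. Such restriction was common: 31 of the 78 variable members reached 10 FPKM in just 1 wild-type library, 19 in 2, 13 in all 3 and 15 in none.

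Lambda variable genes were represented by 2 members. Iglv1, the main lambda segment, had 43.2, 73.4 and 86.3 FPKM in the wild-type and 2.63, 96.3 and 1.82 FPKM in knockout libraries (log2 difference -2.72, SE 1.28, adjusted p = 0.490). Iglv3 had 0.778, 1.71 and 4.44 FPKM in the wild-type and 0, 6.35 and 0 FPKM in knockout libraries. Iglv1 thus divided the libraries as Igkc did. Iglv3 was too low in wild-type replicate 1, at 0.778 FPKM, to place that library in the division.

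By family, knockout replicate 2 lay inside the wild-type range of shares for 10 of the 24 heavy and kappa families, above it for 8 and below it for 6. Inside were Igkv10 with 16.3% against 0% to 32.1%, Igkv3 with 9.87% against 3.95% to 26.5% and Ighv2 with 6.79% against 4.36% to 27.5%. Large families outside it follow. The Igkv12 family held 56.3%, 15.9% and 17.8% of kappa variable FPKM in wild type and 1.33% in knockout replicate 2. The Igkv1 family had the opposite order, with 1.02%, 0.747% and 0.746% in wild type and 19.6% in knockout replicate 2. The Igkv4 family, with Igkv4-59, held 10.2%, 5.44% and 7.65% in wild type and 25.8% in knockout replicate 2. Among heavy families, Ighv8 held 40.9%, 39.8% and 34.3% in wild type and 10.1% in knockout replicate 2, and Ighv1 30.4%, 38.1% and 57.2% against 78.7%. These are shares in 1 knockout library against 3, without a test.

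Wild-type libraries also differed among themselves. Taking for each gene the smaller of its shares in a pair of libraries, the overlap in usage was 39.6%, 32.7% and 46.8% for the 3 wild-type pairs and 10.8%, 19.5% and 25.8% for knockout replicate 2 with wild-type replicates 1, 2 and 3. Of the 33 variable members at 10 FPKM or more in knockout replicate 2, 22 were also so in wild-type replicate 2, which is 66.7% of the former and 48.9% of the latter list. With wild-type replicate 3 the shared number was 19 (57.6% and 43.2%), and with wild-type replicate 1 it was 9 (27.3% and 47.4%). Across the 78 genes, which share their libraries, Pearson's r of log2(FPKM + 1) was 0.30 to 0.35 within wild type and 0.03 to 0.18 between knockout replicate 2 and wild type. In 11 variable members knockout replicate 2 was at least 10 times the highest wild-type value at 10 FPKM or more. Igkv8-27 was the extreme, with 0, 1.17 and 0 FPKM in the wild-type and 0.971, 1413 and 0 FPKM in knockout libraries; it was picked after its values were seen.

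In the comparison of genotypes, 6 variable members fell in knockout livers and no member rose. Of all 11839 genes tested 0.355% were lower and 0.135% higher at a limma adjusted p under 0.05. Of the 93 members, 68 had at least 1 FPKM in at least 3 libraries and were tested. Of these, 8, including Igkv12-44 and Ighv8-5, were under 1 FPKM in all knockout libraries and so passed only through wild type, where a difference had to follow; the counts of members called or without overlap are therefore descriptions. At an unadjusted limma p under 0.05, 23 members were lower and 0 higher, where 6.5% of all genes tested were lower and 4.65% higher. Groups did not overlap in 19 of the 68, all lower in knockout; the filter itself fixed this for 8 of the 19, and 9.56% of all genes tested were lower without overlap, so nothing is read from the count.

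The 6 genes were low in knockout replicate 2 too, the library otherwise rich in antibody transcripts. The fit that picked them includes this library, and a gene high in it has a large SE and could hardly pass. Their low level there, and the contrast with relatives that did not pass, thus follow from the selection and are descriptions. Igkv12-44 (chromosome 6, 69814631 to 69815154) had 118, 122 and 467 FPKM in the wild-type and 0.596, 0 and 0 FPKM in knockout libraries (log2 difference -7.34, SE 0.54, adjusted p = 0.0128). Igkv12-46 (69764523 to 69765022), its relative in the sequences above, had 112.7, 245 and 529 FPKM in the wild-type and 0.770, 11.4 and 1.08 FPKM in knockout libraries (-6.10, SE 0.85, adjusted p = 0.0447). Igkv12-41, slightly closer in sequence to Igkv12-44, took another course. It had 691, 314 and 149 FPKM in the wild-type and 0, 134 and 1.80 FPKM in knockout libraries and did not pass (-5.47, SE 1.72, adjusted p = 0.305). In knockout replicate 2, Igkv12-41 was thus near the lowest wild-type library, where Igkv12-44 was listed at 0.

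The heavy family Ighv8 divided likewise. Ighv8-5 (chromosome 12, 115067560 to 115068002) was listed at 0 in the 3 knockout libraries and had 24.2, 46.0 and 102 FPKM in wild type (-5.63, SE 0.46, adjusted p = 0.0136). Ighv8-8 (115294062 to 115294504) had 65.4, 49.6 and 230.4 FPKM in the wild-type and 0, 2.52 and 0 FPKM in knockout libraries (-5.92, SE 0.70, adjusted p = 0.0296). Ighv8-12 had 19.1, 71.4 and 544 FPKM in the wild-type and 0, 114 and 0 FPKM in knockout libraries and did not pass (-4.25, SE 2.04, adjusted p = 0.499). Knockout replicate 2 was inside the wild-type range for Ighv8-12 and far below it for Ighv8-5 and Ighv8-8.

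The other genes past the threshold were Igkv4-74 and Igkv6-32. Igkv4-74 (chromosome 6, 69184826 to 69185397) had 79.2, 172 and 103.9 FPKM in the wild-type and 0, 4.70 and 0.880 FPKM in knockout libraries (-5.68, SE 0.62, adjusted p = 0.0249). Igkv6-32 (70074024 to 70074603) had 40.2, 10.6 and 28.8 FPKM in the wild-type and 0, 1.11 and 0 FPKM in knockout libraries (-4.24, SE 0.52, adjusted p = 0.0317). Igkv6-32 was the 1 gene of the 6 without a 50-base window shared with another gene. Igkv13-84 lay just outside the threshold, with 79.4, 142 and 76.8 FPKM in the wild-type and 0, 7.69 and 0 FPKM in knockout libraries (-5.55, SE 0.83, adjusted p = 0.0559). The size of these log2 differences depends on the pseudocount, and that of Ighv8-5 ran from -8.92 with a pseudocount of 0.1 to -3.44 with 5.

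**Figure D5:**
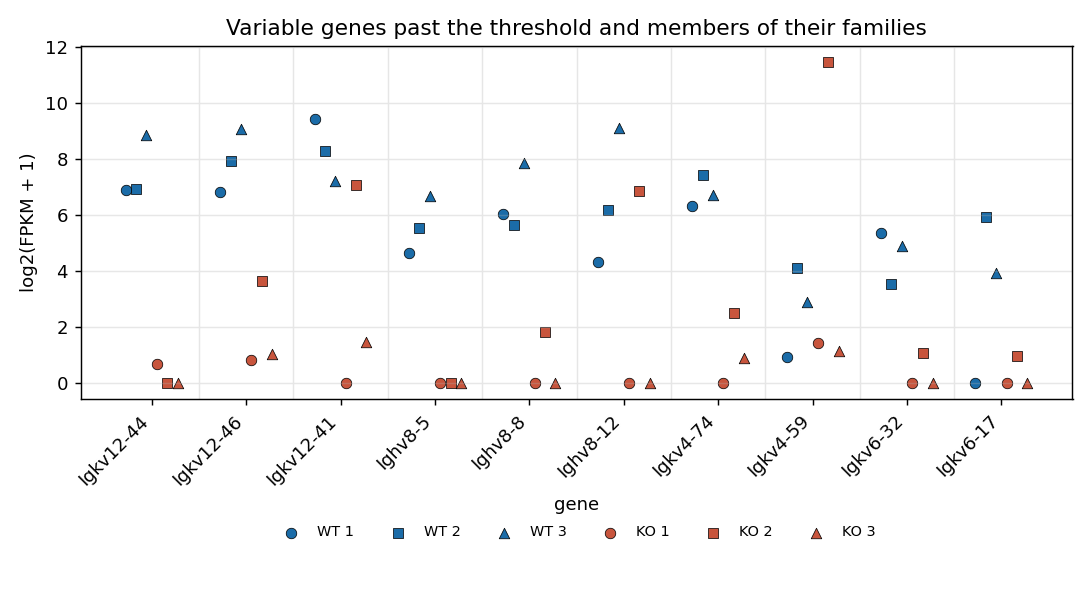
Level of the 6 variable genes that fell and of 4 relatives in each library, as log2(FPKM + 1), with blue points for wild-type and red points for knockout libraries and the point shape giving the replicate number. All red points of Igkv12-44, Ighv8-5, Ighv8-8 and Igkv6-32 lie below 2 on this scale, while the red square of knockout replicate 2 lies close under the blue points for Igkv12-41, among them for Ighv8-12 and above them for Igkv4-59.

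The count rested on single libraries. Knockout replicate 2 was singled out for its high immunoglobulin values, so the values without it are conditioned on the outcome and describe the other 5 libraries. Without knockout replicate 2, 20 of the 68 members were lower (0.338% of all genes tested), among them Igkc with a log2 difference of -7.25 (adjusted p = 0.0124), Jchain with -5.58 (0.00879), Ighg2c with -7.35 (0.00879), Iglv1 with -4.37 (0.0118) and Mzb1 with -2.67 (0.0176), and all 6 genes above were among the 20. With every library, 58 of 68 differences were negative, where 49.4% of all genes tested were. Members share low values in knockout replicates 1 and 3, and 8 of them passed the filter only through wild type. Nothing is therefore read from this count of signs. The count past the threshold was 0 without knockout replicate 3 (16 members lower at an unadjusted p under 0.05 by limma). It was 3 without knockout replicate 1, 2 without wild-type replicate 2 and 2 without wild-type replicate 3. The share of all genes at that unadjusted p without knockout replicate 3 is not given, so nothing is read from the 16. In the 4 libraries L0602 to L0605 alone it was 6.

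Lists of B cell, plasma cell and related genes, chosen with earlier results of these data known, were counted in the same fit. Of 20 B cell markers 9 were analysed here and 6 were tested. None passed in either direction, with a median log2 difference of -0.46 against 0.003 for all genes tested. Pou2af1, a B cell transcriptional coactivator, had 1.48, 0.971 and 1.37 FPKM in the wild-type and 0.0834, 1.81 and 0.0355 FPKM in knockout libraries, the same division of libraries as Igkc (adjusted p = 0.612). Blnk, an adaptor of B cell receptor signalling, was also lowest in knockout replicates 1 and 3, with 1.58, 2.78 and 2.34 FPKM in the wild-type and 0.841, 2.37 and 0.942 FPKM in knockout libraries (adjusted p = 0.590). Cd22, an inhibitory receptor of B cells, and Ly6d had log2 differences of -0.45 and -2.09 (adjusted p = 0.636 and 0.5). Of the tested markers not named by p, Cd37 was lower (-0.41) and Cd72 higher (0.28, adjusted p = 0.688). Cd72 did not divide the libraries as Igkc did, with 10.6, 10.2 and 15.4 FPKM in the wild-type and 12.8, 18.7 and 13.1 FPKM in knockout libraries.

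Of 18 plasma cell markers 10 were tested, none passed, and the median was -0.25. Xbp1, the secretory transcription factor, Zbp1, Ly6c2 and Cd38 had log2 differences of -0.36, 0.45, -0.56 and -0.38 (adjusted p = 0.468, 0.528, 0.590 and 0.643). Hepatocytes also express Xbp1 and Sdc1, which had 66.0 to 118 FPKM in every library. Derl3, an endoplasmic reticulum degradation factor named after its values were seen, had 0.982, 2.19 and 2.22 FPKM in the wild-type and 1.15, 8.15 and 3.35 FPKM in knockout libraries. Of 17 secretory pathway genes used by plasma cells, all tested, 1 rose and none fell, with a median of 0.19. Fkbp11, a prolyl isomerase of the secretory pathway, rose from 38.4, 40.1 and 38.8 FPKM to 68.5, 73.5 and 76.1 FPKM (log2 difference 0.88, SE 0.12, adjusted p = 0.0402). The 3 knockout values of Fkbp11 lay close together, and Igkc was far lower in knockout replicates 1 and 3 than in replicate 2. The source of the Fkbp11 rise was not tested. Prdx4, Sec11c and Sdf2l1 had differences of 0.33, 0.53 and 0.32 (adjusted p = 0.477, 0.529 and 0.537).

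Receptors that bind or carry antibody were tested as 8 genes, none passed, and the median was -0.43. Pigr, the epithelial receptor that moves polymeric IgA into bile, had 161, 163 and 166 FPKM in the wild-type and 191, 176 and 252 FPKM in knockout libraries (log2 difference 0.32, SE 0.17, adjusted p = 0.538). Its groups did not overlap, which held for 16.6% of all genes tested, counting either direction. Igha ranged from 2.20 to 399.8 FPKM, and a link between Pigr and Igha was not tested. The IgG receptors of myeloid cells Fcgr3 and Fcgr4 had differences of -0.92 and -1.22, and Trim21, a cytosolic antibody receptor, of -0.59 (adjusted p = 0.205, 0.243 and 0.226). Of 12 tested genes of B cell survival, homing and germinal centres none passed, with a median of -0.48. Vcam1, Cxcl13, S1pr2 and Itgb7 had differences of -0.67, -1.15, -0.66 and -0.69 (adjusted p = 0.104, 0.296, 0.299 and 0.344). Cxcl13, the B cell attractant, had 5.64, 2.44 and 1.44 FPKM in the wild-type and 0.812, 0.790 and 0.570 FPKM in knockout libraries. Cxcl13 was thus low in knockout replicate 2 as well, unlike Igkc. Ccl19, an attractant of lymphocytes to lymphoid tissue, had 2.49, 2.07 and 1.87 FPKM in the wild-type and 0.320, 2.04 and 0.364 FPKM in knockout libraries, the division seen for Igkc (adjusted p = 0.430). Of the recombination and pre-B genes 3 repair genes were tested, none passed, and their differences ran from -0.06 for Xrcc5 to 0.30 for Xrcc6, with Dclre1c at 0.04.

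Markers of other cells were measured beside these. Of 15 T cell markers 12 were analysed and 8 tested. None passed, the median was -0.49, and their summed level was 24.8 to 32.8 FPKM in the wild-type and 10.5, 19.7 and 8.48 FPKM in knockout libraries. Trac and Trbc2, T cell receptor constant genes, had differences of -1.80 and -1.33 (adjusted p = 0.217 and 0.226). Of 14 macrophage markers 13 were tested, none passed, the median was -0.61, and the sum was 1046 to 1316 FPKM in the wild-type and 604.1 to 896 FPKM in knockout libraries. Csf1r and Lyz2 had differences of -0.77 and -0.86 (adjusted p = 0.202 and 0.250). Of 10 follicular and lymphoid stroma markers 6 were tested, none passed and the median was -0.63, with Mfge8 at -1.51 (adjusted p = 0.0663). Of 10 exocrine pancreas markers Cela1 was tested, at 0.46 (adjusted p = 0.383), with 2.03 to 4.56 FPKM over the libraries. The part of these cell types in the immunoglobulin levels was not tested.

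The genes outside the members whose levels were most like Igkc, by Pearson's r of log2(FPKM + 1) over the 6 libraries, were Slpi, Dtx3, Nkg7, Xpo6, Pcnp, Ptprcap, Vwf and Tnfrsf4, with r from 0.961 to 0.993. With 6 libraries, 2 of them very low, such values are a description of the same division. Slpi, a secreted protease inhibitor of mucosal and inflamed tissue, had 33.9, 70.6 and 76.0 FPKM in the wild-type and 6.33, 74.9 and 4.87 FPKM in knockout libraries. Nkg7, a granule protein of cytotoxic lymphocytes, had 3.03, 6.52 and 5.46 FPKM in the wild-type and 0.539, 5.88 and 1.07 FPKM in knockout libraries. Tnfrsf4, a costimulatory receptor of T cells, had 1.09, 1.05 and 1.52 FPKM in the wild-type and 0.258, 1.21 and 0.442 FPKM in knockout libraries. In all 3 genes the wild-type libraries and knockout replicate 2 lay above knockout replicates 1 and 3.

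Promoters bear the octamer ATGCAAAT in many immunoglobulin genes. The RefSeq promoter table for GRCm38.p6 held 2 members, Jchain and Cd79a, and neither window, from before to just after the gene's start, had these letters on either strand. The letters stood in 1.74% of all 32851 promoters. Both members are accessory genes, so the search covered no variable or constant segment, and nothing is read from it.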

How the data were processed

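Gene expression was measured by RNA-seq of total liver RNA in 6 libraries, 3 per genotype, grouped by sample title. The deposited values, log2 FPKM from the authors, cover 14499 genes. TopHat2 2.0.6, Cufflinks, mm10 and GRCm38 are named in the submitters' processing notes. The annotation they counted on is not stated there. The authors' log2 values bottom out at -10, where FPKM is 0 and an offset of 0.000977 stands alone. Subtracting it left numbers of 6 significant digits for 100% of 60079 values checked, within a relative tolerance of 3e-08, and for 0% without. A listed 0 (3664 values) can be a failed estimate.

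FPKM are not counts, so genes with at least 1 FPKM in at least 3 libraries, 11839 in all, were tested with limma 3.58.1 in R 4.3.3 on log2(FPKM + 1), with eBayes and a mean trend, two-sided, and Benjamini-Hochberg adjustment over all genes tested (threshold 0.05). Adjusted p-values are from this fit. Log2 differences understate changes of low genes. An exact permutation test of 3 against 3 libraries cannot go below 0.1. The fit was checked on simulated data. The members and gene lists were chosen with earlier results of these data known.

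All constant and accessory members were named whatever their values. Named by their values were every member past the threshold; the 3 highest heavy, kappa and lambda variable members by mean; the highest of each library; up to 4 genes per list by p; and the 8 genes most like Igkc. Sequence comparison used Biopython 1.88 on GENCODE M21 transcripts, in which all 93 members had a position. Alternatives were other pseudocounts, filters, scalings, eBayes settings, a replicate block, a term for library numbers, subsets and leaving out each library. Rescaling without immunoglobulin genes and mt-Atp8 was added after seeing the data.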

Additional observations from a re-analysis of the deposited data

How the results depend on the processing

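The count of 6 lower members was 4 to 7 under pseudocounts of 0.1 and 5, a filter at 5 FPKM, median-of-ratios, quantile and total scaling without immunoglobulin genes and mt-Atp8, other eBayes settings, the library number term and the 4 libraries L0602 to L0605. It was 1 with no filter, where 93 members and all 14499 genes were tested, and 14 when libraries were rescaled to the same total without immunoglobulin genes. That total includes mt-Atp8, which had 88549 FPKM in wild-type replicate 1 and 516348 to 842636 FPKM elsewhere, and the rescaling shifted the median of all genes to -0.128. Leaving out 1 library gave 0 to 20. A like count did not mean the same genes. Of the 6 genes of the main fit, only Igkv12-44 and Ighv8-5 passed with a pseudocount of 0.1 and in L0602 to L0605 alone. The count of higher members was 0 under every alternative run, also at an unadjusted p under 0.05 by limma. With the replicate block the count was 0 (28 lower at an unadjusted p under 0.05 by limma). The share of all genes at that p with the block is not given, so nothing is read from the 28. Deviations from the group means correlated with r = 0.35, 0.13 and 0.02 between same-numbered libraries and -0.31 to 0.26 between the others. Deviations within a group depend on each other, so these values cannot decide whether the numbers pair the samples.

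Igkv12-44 passed in 17 of 19 alternatives, Ighv8-5 in 15, Igkv4-74 in 11, Ighv8-8 and Igkv6-32 in 10 and Igkv12-46 in 9, all with negative differences; Igkv12-44 and Ighv8-5 passed the filter only through wild type, so their counts are no measure of stability. Differences changed sign with 1 library left out, from -1.08 to 0.01 for Cd79a, -0.67 to 0.10 for Cd79b, -0.40 to 0.53 for Ighm, -4.55 to 0.04 for Ighv1-4, -0.08 to 3.38 for Igkv1-135, -4.69 to 0.64 for Igkv10-96 and -1.34 to 3.81 for Igkv4-59; Ighv1-4 was at 0.29 in L0602 to L0605 alone. Counting members of at least 1 FPKM only, knockout replicate 1 had an effective number of 7.95, a highest share of 24.1% and a kappa share of 100%. Without the highest variable gene, the next held 13.5% in wild-type replicate 1 and 18.6% in knockout replicate 2. With depth unknown, no counting interval is given.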
